A study of Mus musculus with 24 samples.

Results

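Immediate early and acute stress genes are genes that cells transcribe within minutes of a stimulus or an insult, without making new protein first. The list held 40 mouse genes chosen by symbol, and 37 of them were among the 14027 genes of the deposited table. Fosl1, Zfp36l1 and Dusp2 were not analysed here. The study sequenced RNA of glucagon-producing alpha cells and insulin-producing beta cells from pancreatic islets of the mouse. Both came from a strain labelled triple reporter mouse, and the labels name no reporter, promoter, age or treatment. Isolation took place at 6 points of the day, 4 h apart, given as zeitgeber time (ZT): ZT0, ZT4, ZT8, ZT12, ZT16 and ZT20. For either cell type there were 2 libraries per time, 12 in all, labelled replicate 1 and replicate 2.

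Signals that reach the nucleus through MAP kinases, calcium or cyclic AMP activate factors that already sit on the promoters of these genes, mainly the serum response factor, which binds the CArG box, and CREB, which binds the cyclic AMP response element (CRE). The first products are transcription factors such as Fos, Jun and the EGR proteins, and proteins that end the response, such as the DUSP phosphatases and Zfp36, which destabilises mRNA. The same genes are known to switch on in tissue that is dissected, digested and sorted, and in islet cells some also respond to glucose and hormones.

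Promoter sequences show these elements, and 6 are printed because their genes differ in the values that follow. Fos, Atf3 and Dusp1 hold CRE half-sites, Zfp36 holds a CArG box, Dusp5 holds both, and Ier5 holds neither. Each run is the 200 bases before the RefSeq transcript start, 5′ to 3′ on the gene's strand, in build GRCm38.p6. Capitals mark the CRE half-site TGACG on either strand, the CArG box and TATAAA. The stretches lie at chr12:85473690-85473889 on the plus strand for Fos, chr1:191183334-191183533 on the minus strand for Atf3 and chr17:26508473-26508672 on the minus strand for Dusp1. Those of Zfp36 and Ier5 lie on the minus strand, at chr7:28379229-28379428 and chr1:155099637-155099836. The stretch of Dusp5 lies on the plus strand at chr19:53528945-53529144.
Fos: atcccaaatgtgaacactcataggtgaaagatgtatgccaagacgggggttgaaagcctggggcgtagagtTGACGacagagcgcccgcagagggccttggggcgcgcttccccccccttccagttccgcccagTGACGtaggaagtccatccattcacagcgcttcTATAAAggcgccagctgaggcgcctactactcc
Atf3: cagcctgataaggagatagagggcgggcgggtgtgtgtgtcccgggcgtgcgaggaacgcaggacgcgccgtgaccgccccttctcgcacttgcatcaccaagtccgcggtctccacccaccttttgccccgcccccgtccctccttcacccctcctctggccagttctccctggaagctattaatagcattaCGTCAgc
Dusp1: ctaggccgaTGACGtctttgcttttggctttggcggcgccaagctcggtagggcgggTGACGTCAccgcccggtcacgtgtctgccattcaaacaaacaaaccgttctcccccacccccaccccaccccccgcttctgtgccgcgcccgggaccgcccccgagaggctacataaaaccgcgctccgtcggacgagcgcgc
Zfp36: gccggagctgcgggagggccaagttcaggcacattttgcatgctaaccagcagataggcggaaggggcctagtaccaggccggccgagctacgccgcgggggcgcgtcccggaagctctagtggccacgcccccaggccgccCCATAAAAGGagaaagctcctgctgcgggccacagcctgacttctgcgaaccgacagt
Dusp5: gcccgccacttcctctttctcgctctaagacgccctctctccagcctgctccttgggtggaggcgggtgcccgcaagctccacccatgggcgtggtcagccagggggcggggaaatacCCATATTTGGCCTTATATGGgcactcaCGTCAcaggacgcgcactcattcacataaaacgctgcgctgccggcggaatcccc
Ier5: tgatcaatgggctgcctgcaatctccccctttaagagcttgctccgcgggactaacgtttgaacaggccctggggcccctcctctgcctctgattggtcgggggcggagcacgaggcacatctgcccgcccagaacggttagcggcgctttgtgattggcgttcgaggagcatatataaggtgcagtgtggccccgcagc

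The RefSeq table held 38 promoters of 29 of the genes, among 32851 promoters in all, and 250 bases before each start were searched on both strands. TGACG was found in 55.3% of the 38 promoters and in 17.8% of all promoters. The full CRE TGACGTCA, which contains TGACG on both strands, was in 7.89% of the 38 and 1.55% of all, in Btg2, Dusp1 and Maff. A CArG box was found in 15.8% of the 38 promoters and 1.47% of all, in Dusp5, Egr2 and Zfp36, of which Egr2 has several promoter entries. CACGTG, the E-box that clock proteins can bind, was in 18.4% of the 38 and 6.02% of all, in Dusp1, Egr2, Gadd45b, Gadd45g, Klf4, Klf6 and Maff. The AP-1 motif TGANTCA was in 2.63% of the 38 and 6.75% of all, and TATAAA was in 10.5% and 7.59%. The NF-kB site was in 31.6% of the 38 promoters and 12.4% of all. A match is a stretch of letters in this window and no measure of binding. Whether matches go with the values that follow was not tested.

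The libraries held 4944982 to 12364190 reads each, and the hormone genes went with the cell type labels. Reads of Gcg, the glucagon gene, made up 16% to 24.2% of the alpha libraries and 0.00481% to 0.281% of the beta libraries. Reads of Ins1 and Ins2, the insulin genes, made up 0.0378% to 0.506% of the alpha libraries and 16.4% to 26.0% of the beta libraries. Replicate 1 at ZT4 held the most RNA of the other cell type in both cell types.

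One pair of libraries stood apart in each cell type at ZT8, and a smaller gap was seen at ZT4. Together the 37 genes took 0.864% of the reads in replicate 2 and 0.165% in replicate 1 of the ZT8 alpha cells. In ZT8 beta cells they took 0.366% of the reads in replicate 2 and 0.119% in replicate 1. These were the highest and the lowest shares of the 12 libraries of each cell type. In the ZT4 libraries the order of the labels was the other way round, with 0.211% in replicate 2 and 0.543% in replicate 1 of alpha cells, and 0.146% and 0.272% in the same 2 replicates of beta cells. Replicate 2 at ZT8 had the highest value of the 12 alpha libraries for 29 of the 37 genes, and replicate 1 at ZT8 the lowest for 24. In beta cells the same 2 libraries were highest for 22 genes and lowest for 18.

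**Figure D1:**
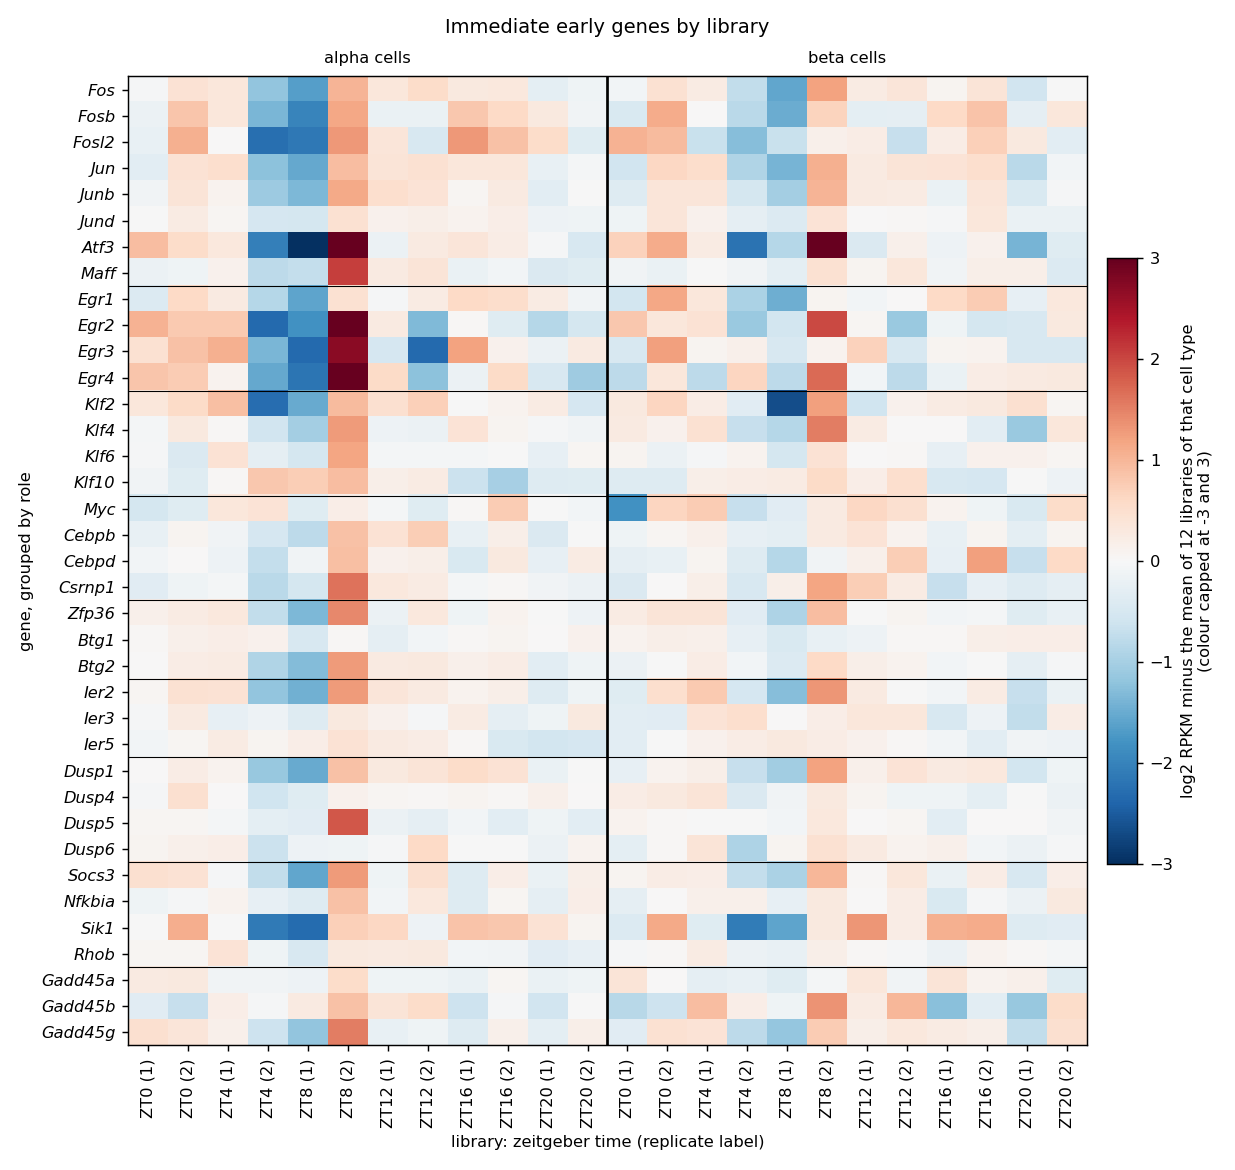
Heat map of the 37 genes (rows, grouped by role) in the 12 alpha libraries (left) and the 12 beta libraries (right), as log2 RPKM minus the gene's mean over that cell type's libraries, with colours capped at -3 and 3. Replicate 2 at ZT8 was above the cell type's mean for 36 of 37 genes in alpha cells, with 34 in beta cells, and replicate 1 at ZT8 was above it for 3 and 5.

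The AP-1 family, whose members pair to form transcription factors, showed how wide the gap between duplicates was. Levels are given as RPKM, reads scaled to gene length and to library size, so that genes can be compared. Fos had 854 RPKM in replicate 2 and 133 RPKM in replicate 1 of the ZT8 alpha cells, and 468 RPKM in replicate 2 and 69.7 RPKM in replicate 1 of the ZT8 beta cells. Jun had 260 and 46.7 RPKM in replicates 2 and 1 of the ZT8 alpha cells, and 110 and 19.8 RPKM in those of beta cells. Junb had 417 and 74.1 RPKM in alpha cells, against 176 and 42.6 RPKM in beta cells, in the same order. All 3 genes were higher in replicate 2 than in the other 11 libraries of the same cell type. Fosb, a Fos relative that marks recent stimulation in neurons, had 129 RPKM in replicate 2 and 14.5 RPKM in replicate 1 of the ZT8 alpha cells. In ZT8 beta cells Fosb had 63.4 and 14.2 RPKM, and its highest beta library was replicate 2 at ZT0, with 86.2 RPKM.

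Atf3, a stress-induced factor of the ATF and CREB family, had the widest gap at ZT8 of the 37 genes in both cell types. It had 299 RPKM (7423 reads) in replicate 2 of the ZT8 alpha cells and 1.34 RPKM (26 reads) in replicate 1, while its other 10 alpha libraries lay between 4.72 and 37.6 RPKM. In beta cells Atf3 had 8.0 RPKM (161 reads) and 0.437 RPKM (9 reads) in replicates 2 and 1 at ZT8, and 0.110 RPKM (2 reads) in replicate 2 at ZT4. Klf4, a zinc finger factor of the Krüppel-like family, had 30.2 and 6.09 RPKM in the ZT8 alpha libraries labelled 2 and 1. Its ZT8 beta libraries had 2.75 and 0.474 RPKM in the same order. Zfp36, whose protein leads mRNAs with AU-rich elements to decay, had 121 and 17.6 RPKM in alpha cells, against 18.1 and 5.0 RPKM in beta cells. Ier2, a small nuclear protein of early growth responses, had 152 and 23.1 RPKM in alpha cells, against 48.5 and 7.92 RPKM in beta cells. Dusp1, a nuclear phosphatase of MAP kinases, had 83.5 and 15.8 RPKM in alpha cells, against 82.0 and 17.2 RPKM in beta cells. Each of these 5 genes was highest, in each cell type, in replicate 2 at ZT8.

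**Figure D2:**
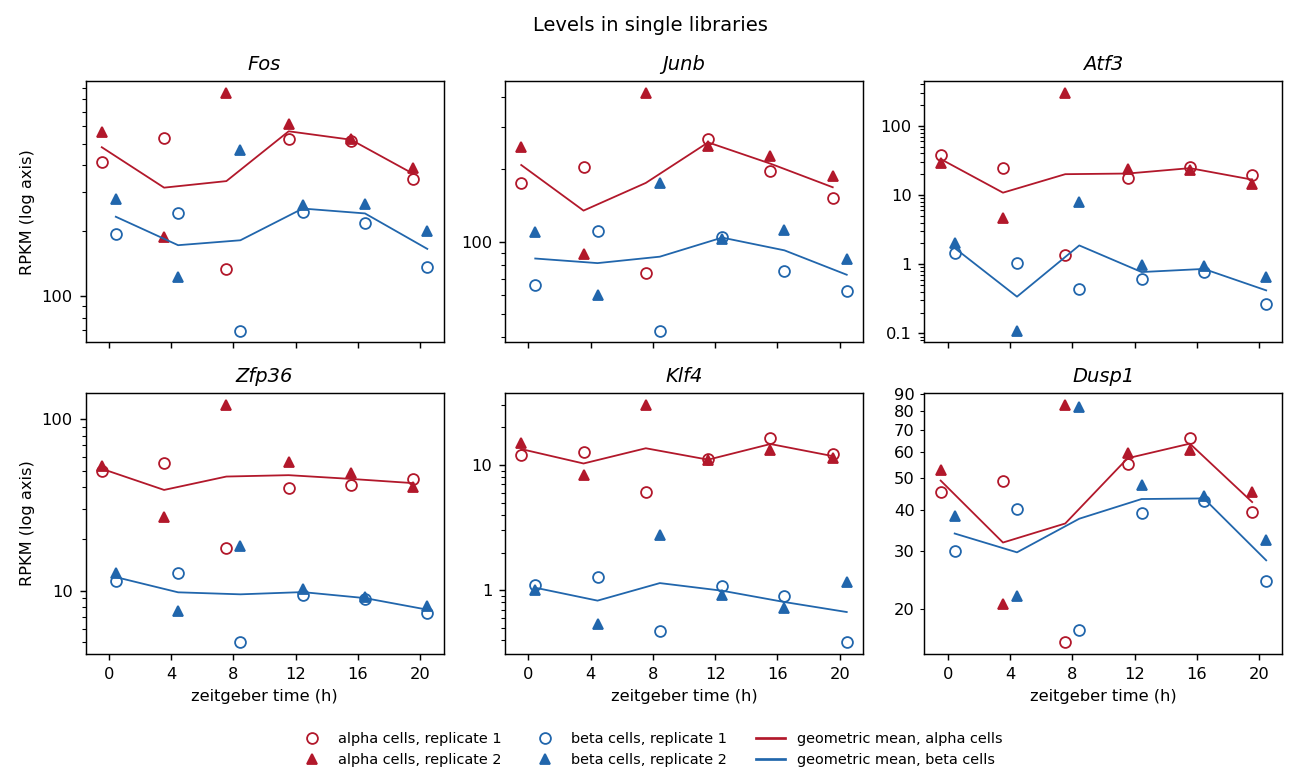
Levels of Fos, Junb, Atf3, Zfp36, Klf4 and Dusp1 (RPKM, log axis) in every library by zeitgeber time, with alpha cells in red at the left and beta cells in blue at the right of each time. Open circles are replicate 1, filled triangles are replicate 2 and lines join geometric means of the 2, and the triangle at ZT8 is the highest point of its cell type for all 6 genes, as with 854 RPKM for Fos in alpha cells.

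Over all 37 genes, replicate 2 at ZT8 was higher than replicate 1 for 37 genes in alpha cells, with a median log2 difference of 2.30 (4.92-fold), and for 36 genes in beta cells, with a median of 1.02 (2.02-fold). Log2 values carry the prior count the authors added, which damps genes with few reads. The median over all 14027 genes was -0.02 in alpha and 0.00 in beta cells. A difference of at least 2-fold in that direction was seen for 26 of the 37 genes in alpha cells, against 1.95% of all genes, and for 19 of the 37 in beta cells, against 2.55% of all genes. At ZT4 replicate 2 was at least 2-fold below replicate 1 for 16 of the 37 genes in alpha cells (4% of all genes) and for 10 in beta cells (5.13% of all genes), with medians of -0.76 and -0.66. With 2 libraries there is no test of such a difference. At ZT12 the medians were 0.04 and 0.02, at ZT16 0.03 and 0.27, at ZT20 0.09 and 0.23, and at ZT0 0.16 and 0.29, alpha cells first.

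**Figure D3:**
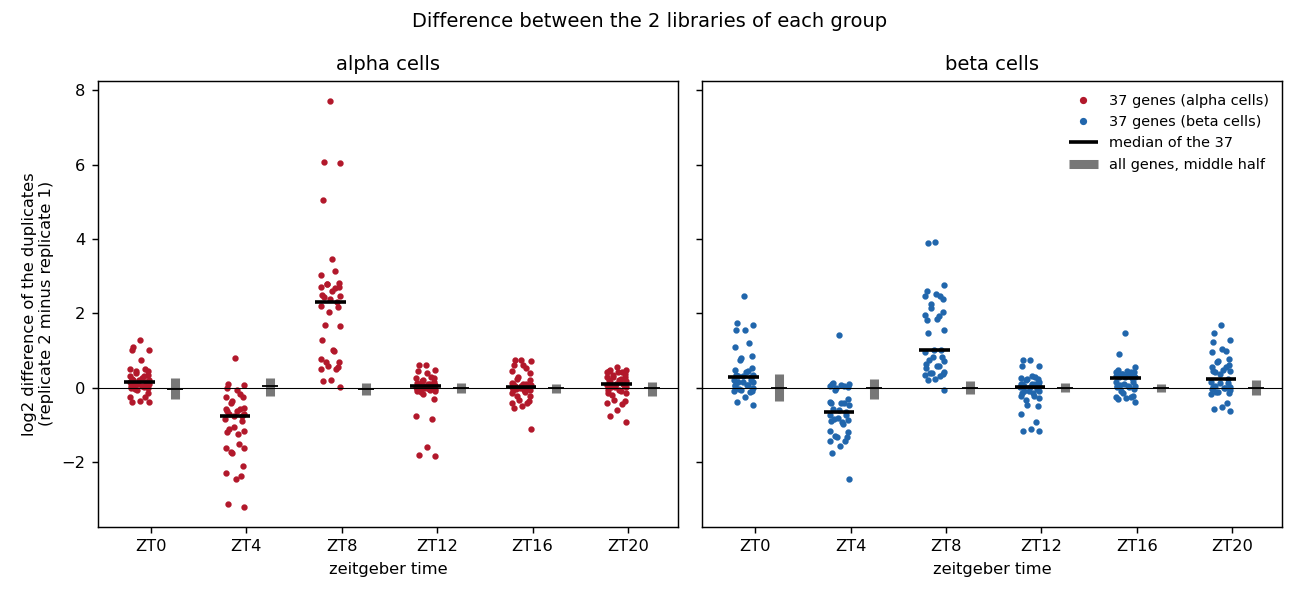
Log2 difference between the 2 libraries of each group (replicate 2 minus replicate 1, vertical axis) for the 37 genes (dots, with their median as a black bar) at each zeitgeber time in alpha cells (left) and beta cells (right). Grey bars run from the lower to the upper quartile of all 14027 genes. The medians of 2.30 and 1.02 at ZT8 and of -0.76 and -0.66 at ZT4 lie outside them, as do the smaller ones of 0.27 and 0.23 in beta cells at ZT16 and ZT20.

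The EGR factors, zinc finger proteins that follow growth factor and calcium signals, had large gaps on few reads. Egr2 had 15.9 RPKM (675 reads) in replicate 2 and 0.181 RPKM in replicate 1 of the ZT8 alpha cells. Egr4 had 8.98 RPKM (240 reads) and 0.048 RPKM (1 read) in the same libraries. In beta cells the highest level was 0.435 RPKM (15 reads) for Egr2 and 0.415 RPKM (9 reads) for Egr4, both in replicate 2 at ZT8. Egr1, the abundant member, had 91.5 and 22.3 RPKM in the ZT8 alpha libraries labelled 2 and 1, and 29.0 and 9.89 RPKM in those of beta cells. Its highest values lay elsewhere, at 101 RPKM in replicate 1 of ZT16 alpha cells and 61.1 RPKM in replicate 2 of ZT0 beta cells. Sik1, a kinase that holds back CREB coactivators, had the same order, with 16.1 and 1.96 RPKM in the ZT8 alpha libraries and 21.2 RPKM in replicate 2 of ZT0 alpha cells.

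A few genes had a wider gap in one cell type than in the other. Maff, a small partner of the AP-1 proteins, had 21.1 RPKM in replicate 2 and 3.00 RPKM in replicate 1 of the ZT8 alpha cells, and 5.58 and 3.32 RPKM in those of beta cells. Dusp5, a nuclear phosphatase of MAP kinases, had 33.8 and 7.34 RPKM in the ZT8 alpha libraries and 26.6 and 20.1 RPKM in the ZT8 beta libraries. The other 10 alpha libraries had 7.41 to 9.66 RPKM of Dusp5 and 2.86 to 6.51 RPKM of Maff. Klf2, with 27 reads or fewer in any beta library, differed by 2.45 on the log2 scale between the ZT8 alpha libraries and by 3.88 between the ZT8 beta libraries. Whether these gaps differ between the cell types was not tested.

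The gap in alpha cells was smallest for Dusp6, Klf10, Ier5, Dusp4, Btg1 and Myc. The log2 difference between ZT8 replicates 2 and 1 was 0.02 in alpha and 0.38 in beta cells for Dusp6, whose product is a MAP kinase phosphatase of the cytoplasm. It was 0.19 and 0.34 for Klf10, a repressor induced by TGF-beta, and 0.22 and -0.06 for Ier5, a cofactor of the heat shock response. Dusp4, a nuclear MAP kinase phosphatase, differed by 0.50 and 0.42, and Btg1, an antiproliferative protein, by 0.51 and 0.23. Myc, the growth-promoting factor, differed by 0.57 in alpha cells and 0.64 in beta cells.

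The spread between duplicates summarises this. The pooled SD of the duplicates on the log2 scale had a median of 0.74 over the 37 genes in alpha cells and 0.63 in beta cells, against 0.19 and 0.21 over all genes. Without the ZT4 and ZT8 libraries these medians were 0.24 and 0.31 for the 37 genes and 0.18 and 0.21 for all genes. Correlated over the 12 duplicate differences with the median of the list, 24 of the 31 genes with at least 50 reads on average had Pearson's r above 0.8, as had 0.86% of the 11049 genes with that many reads. Atf3 was the closest, at 0.983, and Klf10 the farthest, at -0.07. These r are descriptions, since the 31 genes share libraries and form the median themselves.

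Outside the lists, the 8 genes whose duplicate differences were most like that median, among 11049 genes with at least 50 reads on average, were Irf1, Gem, Siah2, Myo7a, Cx3cr1, Gcc1, Mafk and Zc3h10, with r of 0.902 to 0.988 over 12 groups. Irf1, an interferon regulatory factor, differed at ZT8 by 1.67 on the log2 scale in alpha cells and 0.75 in beta cells. Gem, a small GTPase that inhibits calcium channels, differed by 4.72 and 1.40. The others differed less, by 0.64 (Zc3h10) to 1.48 (Siah2) in alpha cells and by 0.10 (Mafk) to 0.74 (Myo7a) in beta cells. A high r is thus no measure of the size of the gap. The median r over all genes considered was -0.07.

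Further lists were read at ZT8 in the same way, where 1.95% of all genes in alpha and 2.55% in beta cells were at least 2-fold higher in replicate 2. Of 25 measured genes in a list of other immediate early genes, 13 were at least 2-fold higher in replicate 2 than in replicate 1 at ZT8 in alpha cells and 9 in beta cells. Nr4a1, an orphan nuclear receptor picked here after its values were seen, had 125 and 3.82 RPKM in alpha cells, against 34.4 and 1.13 RPKM in beta cells. Of 11 heat shock genes, 5 were at least 2-fold higher in alpha cells, with 3 in beta cells, and of 18 upstream kinases and factors none was in either cell type. Of 8 NF-kB targets 3 were in alpha and 2 in beta cells, and of 13 feedback inhibitors of receptor signalling 3 and 1. Of 9 genes of the stress response of translation 2 were in alpha cells and 1 in beta cells. The heat shock protein gene Hspa1a, picked in the same way, had 9.34 and 1.28 RPKM in alpha cells, against 10.1 and 1.04 RPKM in beta cells, but its reads may be shared with the near-identical Hspa1b. Its highest libraries were replicate 1 at ZT4, with 28 RPKM in the alpha and 12.6 RPKM in the beta library. Summed levels of 9 acinar markers ran the other way at ZT8, at 69.2 RPKM in replicate 2 and 203 RPKM in replicate 1 of ZT8 alpha cells, and 38.0 and 312 RPKM in those of beta cells. At ZT4 they ran the same way as the 37 genes, at 133 RPKM in replicate 2 and 249 RPKM in replicate 1 of alpha cells, and 193 and 361 RPKM in those of beta cells. The sums ranged over 32.6 to 394 RPKM in the alpha and 38.0 to 361 RPKM in the beta libraries, no acinar marker was at 0 in all libraries, and their part in the result was not tested. Summed immune markers (5 of 8 measured) were 52.4 and 70.7 RPKM in replicates 2 and 1 of the ZT8 alpha cells and 56.7 and 56.8 RPKM in those of beta cells. Most of each sum was C1qa, at 49.1 and 60.6 RPKM in the alpha and 46.7 and 51.4 RPKM in the beta libraries. In alpha cells all 5 were lower in replicate 2, by -0.30 (C1qa) to -2.82 (Lyz2) on the log2 scale. In beta cells Csf1r, Lyz2 and Cd74 were higher in replicate 2 (0.88, 0.89 and 0.87), and Ptprc and C1qa lower (-0.35 and -0.14).

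Alpha cells were next compared with beta cells, with time as a factor. In the bulk libraries, more cells that express a gene and more RNA per cell cannot be told apart. A gene was called at a limma adjusted p under 0.05 (Benjamini-Hochberg over all 14027 genes) and a difference of at least 2-fold. Of the 37 genes 17 were called, 14 higher in alpha cells and 3 higher in beta cells. Of all genes 20.7% were called, 11.2% higher in alpha cells and 9.54% higher in beta cells. The median log2 difference, alpha minus beta, was 0.66 over the 37 genes and 0.01 over all genes. Without the fold threshold 30 of the 37 passed (74.9% of all genes), 22 higher in alpha cells (37.8%) and 8 higher in beta cells (37.2%). For 5 of the 37 genes no alpha library lay within the range of the beta libraries, against 26% of all genes, with alpha cells above for 2 (11.9% of all genes) and beta cells above for 3 (14.2%). Without the 4 ZT8 libraries 18 genes were called, which included all 17 and added Dusp6.

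**Figure D4:**
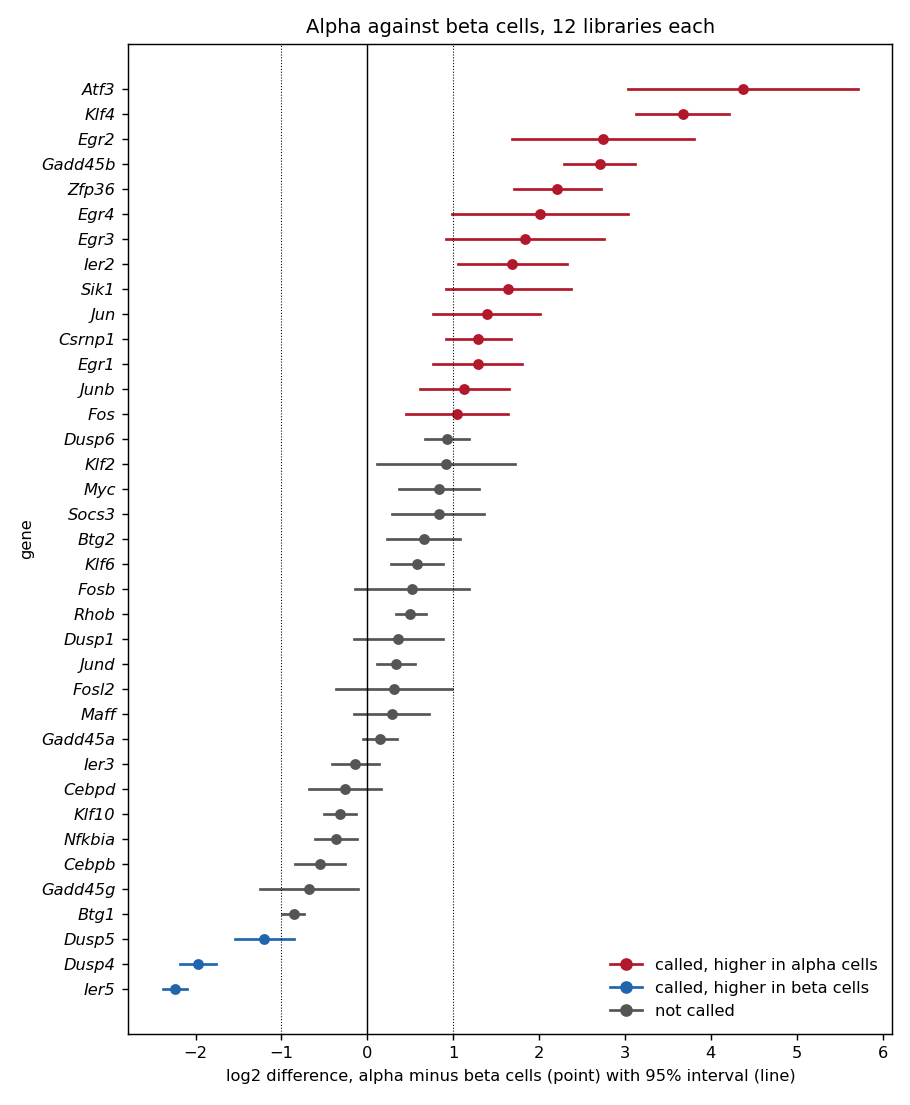
Log2 difference between alpha and beta cells (points, alpha minus beta) with its 95% interval (lines) for the 37 genes, from 12 libraries of each cell type, with dotted lines at a 2-fold difference. Red marks the 14 genes called higher in alpha cells, from Atf3 at 4.37 to Fos at 1.04, blue the 3 called higher in beta cells and grey those not called.

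Of the AP-1 genes 4 of 8 measured were called higher in alpha cells and none was called higher in beta cells. Fos was among the most abundant mRNAs of both cell types, ranking 35 of 14027 in alpha cells and 89 in beta cells by mean RPKM. Its level was 133, 522 and 854 RPKM in the lowest, median and highest alpha library and 69.7, 229 and 468 RPKM in the beta libraries. The groups overlapped, and the log2 difference was 1.04 ± 0.28 (SE), 2.06-fold (limma adjusted p = 0.0025). Fos missed the 2-fold threshold without replicate 2 at ZT8 in alpha cells (log2 difference 0.89), without replicate 1 at ZT8 in beta cells (0.89), and without replicate 1 at ZT4 in alpha (0.97) or replicate 2 at ZT4 in beta cells (1.00). Jun had 46.7, 172 and 260 RPKM in the lowest, median and highest alpha library and 19.8, 65.5 and 110 RPKM in the beta libraries, 2.62-fold higher in alpha cells (limma adjusted p = 0.00032). Junb had 74.1, 200 and 417 RPKM in the alpha and 42.6, 93.9 and 176 RPKM in the beta libraries, 2.18-fold higher (limma adjusted p = 0.00038), or 0.99 on the log2 scale without replicate 2 of the ZT8 alpha cells. Atf3 had 1.34, 23.6 and 299 RPKM in the alpha and 0.110, 0.860 and 8.0 RPKM in the beta libraries. The groups overlapped through replicate 1 at ZT8 and replicate 2 at ZT4 of the alpha cells, both under the highest beta library, and the difference was 4.37 ± 0.64 (20.7-fold, limma adjusted p = 4.1e-06). Without the ZT8 libraries it was 4.59. Fosb had 14.5, 61.5 and 129 RPKM in the alpha and 14.2, 36.9 and 86.2 RPKM in the beta libraries and was not called (0.52, 95% interval -0.14 to 1.18, limma adjusted p = 0.14). Without the ZT8 libraries its difference, again 0.52, passed the adjusted p (limma adjusted p = 0.036) but stayed under 2-fold. Jund passed the adjusted p but not the fold (0.33), and Fosl2 and Maff passed neither (0.31 and 0.29).

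All 4 EGR genes were higher in alpha cells. Egr1 averaged 72.0 ± 25.4 RPKM in alpha cells, against 30.4 ± 14.3 RPKM in beta cells (SD, n = 12 each), 2.44-fold higher. Egr2 had 0.108, 0.693 and 15.9 RPKM in the lowest, median and highest alpha library and 0.00, 0.0641 and 0.435 RPKM in the beta libraries, of which 2 had no read. Egr4 had 0.0480, 0.523 and 8.98 RPKM in the alpha and 0.00, 0.0751 and 0.415 RPKM in the beta libraries, of which 4 had no read. Egr3 had no read in 2 alpha and 5 beta libraries, where a count of 0 allows up to 3 reads, counting error only. The fitted folds of 6.69 for Egr2, 4.02 for Egr4 and 3.58 for Egr3 depend on the prior count, and with log2(RPKM + 1) none of the 3 reached 2-fold (log2 differences of 0.90, 0.68 and 0.70).

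Among the Krüppel-like factors Klf4 alone was called. Klf4 had 6.09, 12 and 30.2 RPKM in the lowest, median and highest alpha library and 0.385, 0.957 and 2.75 RPKM in the beta libraries, with no overlap. The difference was 3.67 ± 0.26 (12.8-fold, limma adjusted p = 3.9e-11) and 3.71 without the ZT8 libraries. Klf6 averaged 11.8 ± 4.70 RPKM in alpha cells, against 7.55 ± 1.20 RPKM in beta cells (0.58), and Klf2 1.35 ± 0.681 and 0.655 ± 0.346 RPKM (0.91), alpha cells first, both past the adjusted p but under 2-fold. Klf2 passed 2-fold without replicate 2 at ZT4 (1.14) or replicate 1 at ZT8 (1.03) of alpha cells, or replicate 2 at ZT8 of beta cells (1.11). Klf10 was the one factor of this family that leaned to beta cells, at -0.32. Of the other transcription factors, Csrnp1, a nuclear protein induced by axin, was called, with 8.16 ± 4.91 RPKM in alpha cells, against 3.21 ± 1.44 RPKM in beta cells (2.44-fold). Without replicate 2 at ZT8 the alpha values were 6.80 ± 1.47 RPKM for Csrnp1 and 10.5 ± 1.95 RPKM for Klf6 (n = 11). Myc had 1.11, 1.58 and 2.81 RPKM in the lowest, median and highest alpha library and 0.199, 1.02 and 1.54 RPKM in the beta libraries, under 2-fold (0.83, limma adjusted p = 0.0021). Cebpb and Cebpd, bZIP factors of the acute phase response, had differences of -0.55 and -0.26, and Cebpd did not pass the adjusted p (0.25).

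The RNA decay and antiproliferative genes split. Zfp36 had 17.6, 46.4 and 121 RPKM in the lowest, median and highest alpha library and 5.0, 9.28 and 18.1 RPKM in the beta libraries. Only the lowest alpha and the highest beta library, both of ZT8, crossed, and the difference was 2.21 ± 0.24 (4.64-fold, limma adjusted p = 6.5e-08). Btg2 averaged 172 ± 78.5 RPKM in alpha cells, against 101 ± 19.8 RPKM in beta cells (0.66), and 153 ± 44.6 RPKM in alpha cells without replicate 2 at ZT8 (n = 11). Btg1 was lower in every alpha library than in any beta library, at 9.59, 13.7 and 15.5 RPKM against 17.8, 25.7 and 28.1 RPKM, but under 2-fold (-0.86, limma adjusted p = 1.5e-11).

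The IER genes went in opposite directions. Ier2 had 23.1, 69.3 and 152 RPKM in the lowest, median and highest alpha library and 7.92, 18.8 and 48.5 RPKM in the beta libraries, 3.22-fold higher in alpha cells (limma adjusted p = 4.8e-05). Ier5 had 2.85, 4.40 and 5.63 RPKM in the alpha and 15.9, 20 and 24.3 RPKM in the beta libraries, with no overlap. The difference of -2.24 ± 0.07 (4.73-fold higher in beta cells, limma adjusted p = 1.6e-18) had the smallest adjusted p of the 37 genes. Ier3, an inhibitor of cell death, did not pass (-0.14), and its sign turned with scaling to library totals (0.03) and without the ZT4 and ZT8 libraries (0.06).

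Of the MAP kinase phosphatases 2 of 4 were higher in beta cells. Dusp4 had 1.04, 1.65 and 2.27 RPKM in the lowest, median and highest alpha library and 4.80, 6.22 and 8.48 RPKM in the beta libraries, with no overlap (-1.97 ± 0.10, 3.91-fold higher in beta cells, limma adjusted p = 4.0e-14). Dusp5 averaged 10.4 ± 7.43 RPKM in alpha cells, against 21.5 ± 2.16 RPKM in beta cells (2.30-fold higher in beta cells). Without replicate 2 at ZT8 its alpha mean was 8.27 ± 0.884 RPKM (n = 11), and replicate 2 of the ZT8 alpha cells, at 33.8 RPKM, was above all 12 beta libraries. Dusp6 leaned to alpha cells (0.93) and reached 1.01 without the ZT8 libraries and 1.0 without replicate 1 of the ZT4 beta cells. Dusp1 had 15.8, 50.9 and 83.5 RPKM in the alpha and 17.2, 38.7 and 82.0 RPKM in the beta libraries and was not called (0.36, 95% interval -0.16 to 0.88, limma adjusted p = 0.20). Without the ZT8 libraries its difference of 0.44 passed the adjusted p (limma adjusted p = 0.0068) but stayed under 2-fold.

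Gadd45b was the strongest of the remaining genes. The GADD45 proteins act in growth arrest and DNA repair and bind upstream kinases of the p38 and JNK pathways. Gadd45b had 22.8, 36.6 and 68.0 RPKM in the lowest, median and highest alpha library and 2.26, 5.75 and 14.5 RPKM in the beta libraries, with no overlap (2.71 ± 0.20, 6.53-fold, limma adjusted p = 8.0e-11). Gadd45a did not pass (0.15), and Gadd45g, with 27.1 ± 15.2 RPKM in alpha cells and 42.0 ± 15.1 RPKM in the beta libraries (SD, n = 12 each), was under 2-fold (-0.68). Without replicate 2 at ZT8 its alpha mean was 23.2 ± 6.99 RPKM (n = 11). Sik1 averaged 12.1 ± 6.02 RPKM in alpha cells, against 3.94 ± 2.51 RPKM in beta cells (3.12-fold higher in alpha cells). Socs3, an inhibitor of cytokine receptors, and Rhob, an endosomal GTPase, were under 2-fold at 0.83 and 0.50, and Nfkbia, the inhibitor of NF-kB, at -0.37. Socs3 reached 1.0 without replicate 1 of the ZT8 alpha cells.

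Further lists are set beside the shares called over all genes, 11.2% higher in alpha cells and 9.54% higher in beta cells. Of 25 other immediate early genes 8 were called higher in alpha cells and 3 higher in beta cells (median log2 difference 0.35). The inhibitors of bHLH factors Id3 and Id1 were higher in alpha cells by 4.49 and 3.90 and the kinase Plk2 by 4.26, while its relative Plk3 was higher in beta cells (-3.79). Id3 and Id1 averaged 0.118 and 0.0512 RPKM in beta cells, each with no read in some beta library, so the size of their differences depends on the prior count. Of 13 feedback inhibitors of receptor signalling 5 were called higher in alpha cells and 3 higher in beta cells (median 0.57). Spry1, Spred1 and Dusp8 were higher in alpha cells (4.18, 2.30 and 2.17) and Dusp14 in beta cells (-4.06). Among 8 NF-kB targets Nfkbiz was called (-1.12), among 18 upstream kinases and factors Mkl2 (1.22), and among 11 heat shock genes Hspb1 (1.27). Of 9 genes of the stress response of translation, 5 were called higher in beta cells and none higher in alpha cells at 2-fold (median -1.03), with Trib3 at -3.59, Chac1 at -2.86, Asns at -1.84 and Atf6 at -1.19. By the adjusted p alone 8 of the 9 were higher in beta cells and 1, Sesn2, in alpha cells (0.69). Dusp14 and Trib3 averaged 0.18 and 0.211 RPKM in alpha cells, each with no read in some alpha library, so the size of their differences also depends on the prior count. All 4 delta, 3 PP, 2 duct and 2 glial markers measured were called higher in alpha cells, with sums of 2510 to 5180, 27800 to 59500, 25.6 to 78.6 and 0.852 to 3.87 RPKM in the alpha libraries. In the beta libraries the same sums were 644 to 1420, 359 to 1730, 5.03 to 19.2 and 0.171 to 0.894 RPKM. Of the stromal markers 4 of 5 measured were called higher in alpha cells, with sums of 4.21 to 7.35 RPKM in the alpha and 0.374 to 1.03 RPKM in the beta libraries and Col1a1 and Col3a1 at 0 in some. None of 4 endothelial or 5 immune markers was called, with endothelial sums of 3.87 to 7.42 and 2.15 to 4.03 RPKM and immune sums of 40.6 to 70.7 and 32.7 to 65.4 RPKM, alpha cells first. Their part in these differences was not tested.

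A cosine with a period of 24 h was fitted to each gene in 1 model of all 24 libraries. The cosine terms were separate for alpha and beta cells, and the estimate of the spread was shared. A rhythm was called at a limma adjusted p under 0.05. Of the 37 genes 2 (5.41%) were called rhythmic in alpha cells, Klf10 and Ier5, against 9.66% of all genes. In beta cells 4 (10.8%) were called, Klf10, Ier5, Btg1 and Gadd45b, against 16% of all genes. With the beta libraries fitted alone, Ier5 kept its call and Klf10, Btg1 and Gadd45b did not. The ZT8 duplicates of Klf10, Ier5, Btg1 and Gadd45b in alpha cells differed by 0.19, 0.22, 0.51 and 0.59 on the log2 scale. Those of Gadd45b in beta cells differed by 1.48. Fos had no call in either cell type, with a fitted range of 0.61 ± 0.59 in alpha cells and 0.35 ± 0.59 in beta cells (log2, SE). A wide spread between duplicates, as most of the 37 genes had, makes a rhythm harder to call.

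Klf10 had the widest swing of the called genes in alpha cells. Its alpha libraries had 8.81 and 7.37 RPKM at ZT0, 9.71 and 16.8 RPKM at ZT4, 15.8 and 18.1 RPKM at ZT8, 10.7 and 11.3 RPKM at ZT12, 6.06 and 4.76 RPKM at ZT16 and 7.23 and 7.34 RPKM at ZT20. In beta cells it had 9.15 and 9.11, 13.4 and 13.9, 14.1 and 17.9, 13.7 and 17, 8.58 and 8.39, and 11.8 and 10.8 RPKM at the same times. By the mean of the duplicates, levels were highest at ZT8 and lowest at ZT16 in both cell types. The fitted range was 2.71-fold in alpha cells with a peak at ZT6.8 ± 0.6 h (limma adjusted p = 0.0011), and 1.74-fold in beta cells with a peak at ZT8.2 ± 1.0 h (limma adjusted p = 0.036).

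Ier5 swung less, at the same hours. It had 3.94 and 4.37 RPKM at ZT0, 4.97 and 4.43 RPKM at ZT4, 4.83 and 5.63 RPKM at ZT8, 5.05 and 4.91 RPKM at ZT12, 4.26 and 3.03 RPKM at ZT16 and 2.85 and 2.91 RPKM at ZT20 in alpha cells. In beta cells it had 16.1 and 19.7, 21.7 and 23.2, 24.3 and 23.4, 21.6 and 20.3, 18.9 and 15.9, and 18.4 and 17.9 RPKM. In both cell types the libraries of ZT4 and ZT8 were above those of ZT16 and ZT20, times picked from these same values. The range was 1.72-fold in alpha cells (peak ZT7.7 ± 0.6 h, limma adjusted p = 0.0020) and 1.39-fold in beta cells (peak ZT7.4 ± 1.0 h, limma adjusted p = 0.034).

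Btg1 and Gadd45b were called in beta cells only, and the difference of rhythm between the cell types was not called for either (limma adjusted p = 0.95 and 1). Btg1 had 26.3 and 27.6 RPKM at ZT0, 27.0 and 20.6 RPKM at ZT4, 17.8 and 20.9 RPKM at ZT8, 21.8 and 25.1 RPKM at ZT12, 24.9 and 27.6 RPKM at ZT16 and 27.8 and 28.1 RPKM at ZT20 in beta cells. It was lowest at ZT8, and the fit gave a 1.39-fold range with a peak at ZT20.2 ± 1.0 h (limma adjusted p = 0.034). In alpha cells the range was 1.26-fold (limma adjusted p = 0.16), and the 12 libraries lay between 9.59 and 15.5 RPKM. Gadd45b had 3.07 and 3.58 RPKM at ZT0, 10.6 and 6.41 RPKM at ZT4, 5.10 and 14.5 RPKM at ZT8, 6.66 and 11.3 RPKM at ZT12, 2.26 and 4.40 RPKM at ZT16 and 2.44 and 8.19 RPKM at ZT20 in beta cells. The ZT8 pair spanned values seen at ZT4, ZT12 and ZT20, and the fit gave a 2.84-fold range and a peak at ZT8.0 ± 1.1 h (limma adjusted p = 0.044). In alpha cells it had 29.5 and 22.8, 42.8 and 36.3, 45.1 and 68.0, 48.9 and 54.8, 23.9 and 36.5, and 25 and 36.8 RPKM, a 2.14-fold range (limma adjusted p = 0.17), which was called with voom (0.037) or the alpha libraries alone (0.025).

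**Figure D5:**
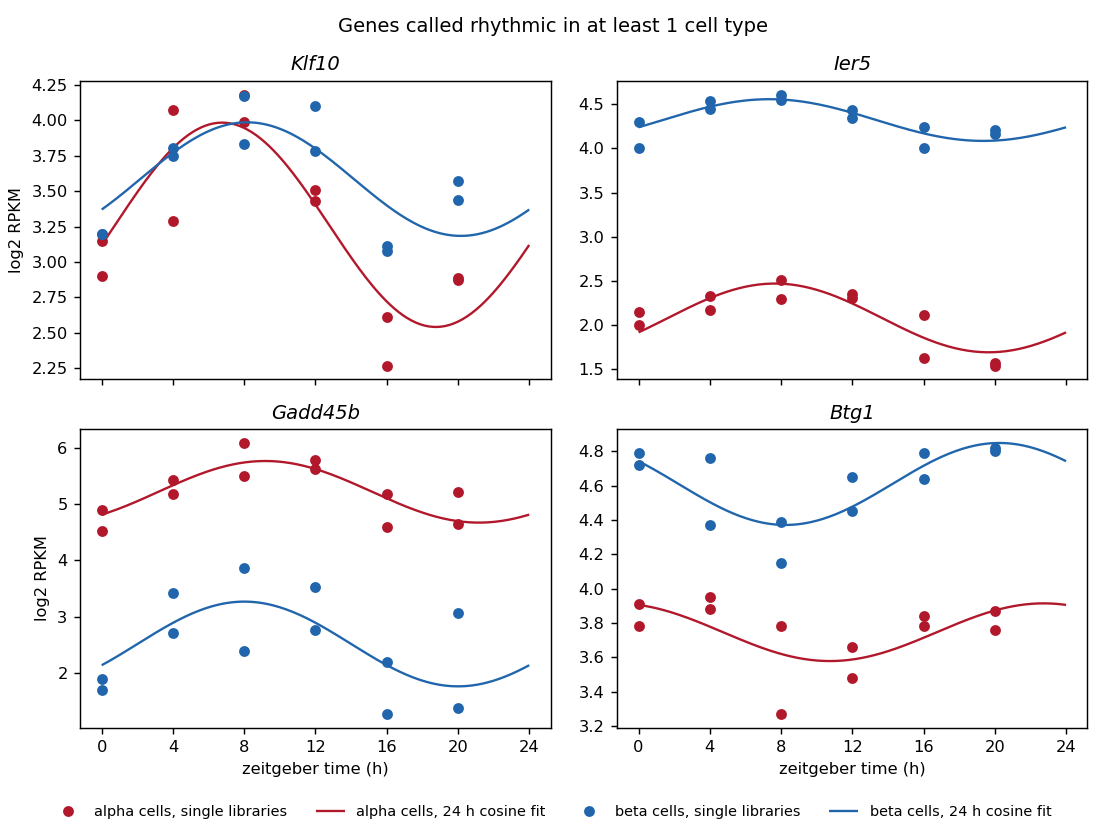
Log2 RPKM of Klf10, Ier5, Gadd45b and Btg1 in every library by zeitgeber time (points) with the fitted 24 h cosine (lines), in alpha cells (red) and beta cells (blue). Klf10, Ier5 and Gadd45b peak near ZT8 in both fits, and Btg1 in beta cells peaks at ZT20.2.

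Calls of the beta cell rhythms, which lay close to the threshold, changed with single libraries more than the fitted swing did. With each of the 24 libraries left out in turn, the calls of Klf10, Ier5 and Btg1 were each lost 7 times, every time without a beta library. That of Gadd45b was lost 17 times, without libraries of either cell type. The limma adjusted p reached 0.11, 0.09, 0.14 and 0.14 for Klf10, Ier5, Btg1 and Gadd45b. The fitted log2 range stayed at 0.72 to 0.97 for Klf10 (0.80 with all libraries), 0.43 to 0.52 for Ier5 (0.47), 0.38 to 0.54 for Btg1 (0.48) and 1.24 to 2.08 for Gadd45b (1.51). Without replicate 2 of the ZT8 beta cells none of the 4 was called, and the adjusted p were 0.11, 0.069, 0.068 and 0.14 for Klf10, Ier5, Btg1 and Gadd45b. Without replicate 2 of the ZT4 beta cells or with either ZT16 beta library left out none was called either. Klf10 was also lost without replicate 1 at ZT8 (0.056) and without replicate 1 or 2 at ZT12 (0.054 and 0.062) of the beta cells. Ier5 was lost without the beta replicate 1 at ZT8 (0.09), replicate 1 at ZT12 (0.051) or replicate 2 at ZT20 (0.051), and Btg1 without the same 3 (0.14, 0.056 and 0.062). In alpha cells the calls of Klf10 and Ier5 held in all 24 cases, with adjusted p up to 0.0061 and 0.012. Without all 4 ZT8 libraries the rhythm of Klf10 in alpha cells was not called (adjusted p = 0.076), with a fitted log2 range of 1.27 against 1.44 with all libraries, and that of Ier5 was called. Without the ZT4 and ZT8 libraries neither Klf10 nor Ier5 was called in alpha cells (limma adjusted p = 0.26 and 0.078).

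Differences between any of the 6 times, without assuming a cosine, were called for Klf10 and Ier5 in alpha cells (limma adjusted p = 0.0013 and 0.017), where 3.79% of all genes were called. In beta cells Klf10 alone was called (limma adjusted p = 0.021), where 8.64% of all genes were. The call of Ier5 was lost without replicate 1 or 2 of the ZT20 alpha cells (0.072 and 0.053). That of Klf10 in beta cells was lost without replicate 2 at ZT8 (0.052), replicate 2 at ZT12 (0.051) or replicate 1 or 2 at ZT16 (0.071 and 0.082) of the beta cells.

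No difference of rhythm between alpha and beta cells was called by limma for any of the 37, where it was for 0.0713% of all genes, and 1 had an unadjusted p under 0.05, as had 7.66% of all genes. No change with time in the gap between the cell types was called by limma for any of the 37, where it was for 0.0143% of all genes, and none had an unadjusted p under 0.05, against 5.56% of all genes. Without replicate 1 of the ZT8 alpha cells, Dusp5 was called in that test (limma adjusted p = 0.020), and Maff and Dusp5 between the times in alpha cells (0.0069 and 8.8e-05). That fit leaves the alpha ZT8 group with replicate 2 alone, which is assumed to vary like the other groups.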

How the data were processed

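Per the labels' protocols, stranded libraries were made from total RNA of alpha and beta cells depleted of ribosomal RNA. STAR, edgeR and the build mm10 are named in the submitters' processing notes. For versions, annotation, strand setting and gene filter, the sources used here give nothing. Log2 numbers were deposited by the authors, and from their steps these are log2 RPKM with a prior count of 2 on average and scaled library sizes. Whole reads were recovered for 100% of values (largest deviation from a whole number 8.3e-08, tolerance 0.001), and RPKM without the prior count was computed from them. Depth was 4944982 to 12364190 reads per library, a median of 206 reads per gene.

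All tests used the deposited log2 values in limma 3.58.1 (R 4.3.3, trend and robust), adjusted over 14027 genes. The planned log2(value + 1) and a fit of the recovered reads by limma's voom were alternatives, among 36 other settings; voom called 2991 genes between the cell types, against 2903. Scripts were tested on simulated data. The labels do not say whether duplicates came from separate animals, so p-values measure only how far these libraries vary, perhaps for technical reasons. In no group did the duplicates lie within sampling noise (chi-square 2.52 to 46.63 per gene). The genes, lists and tests were chosen with earlier results of these data known. Values in single libraries are given for the called genes with the 8 largest folds, all genes called in a time test and 10 fixed genes, and up to 4 called genes are named per further list. Maff, Dusp5, Egr1, Sik1, Klf2, Nr4a1 and Hspa1a were added after their values were seen. Gene symbols are those of the table, and all 37 matched the GENCODE annotation of GRCm38.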

Additional observations from a re-analysis of the deposited data

How the results depend on the processing

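Of the 17 genes called between alpha and beta cells, 12 were called in all 35 other settings; Fos, Junb, Egr2, Egr3 and Egr4 were not. Of the 20 not called, 17 were called in none; Klf2, Dusp6 and Socs3 were in some. With single libraries left out, 15 to 19 genes were called between the cell types, 12 to 16 higher in alpha cells and 3 higher in beta cells, 2 in the alpha rhythm, 0 to 5 in the beta rhythm, 0 in the difference of rhythm, 1 to 4 and 0 to 3 between times in alpha and beta cells, and 0 to 1 in the gap by time. With no fold threshold 30 genes passed, 22 higher in alpha and 8 higher in beta cells (74.9% of all genes). Scaling to library totals moved the median of all genes from 0.01 to 0.19 on the log2 scale, and gave 1 beta rhythm (Klf10), 1 alpha gene between times and a reversed sign for Ier3 (0.03). Ier3 also reversed without the ZT4 and ZT8 libraries (0.06). Of the calls over all genes 53.9% were higher in alpha cells, 43.1% with log2(RPKM + 1), when 1602 genes were called against 2903, and 42.1% among genes with a mean log2 RPKM above 0, when 1755 were; the cause was not tested. With the beta libraries alone 1 gene (Ier5) was rhythmic in beta cells. The settings without the 4 ZT8 libraries, without the ZT4 and ZT8 libraries and without both ZT8 libraries labelled 2 were chosen after seeing the data. They gave 1, 1 and 2 alpha rhythms and 0 beta rhythms each. Without the ZT4 and ZT8 libraries the 1 alpha rhythm was neither that of Klf10 nor that of Ier5. Between times these settings gave 1 alpha gene each, and 0, 2 and 0 beta genes. Leaving out both ZT4 libraries labelled 1 gave 2 beta genes between times. Fewer libraries were fitted in each. A replicate block gave 1 gene in the difference of rhythm (Dusp1, limma adjusted p = 0.045, against 0) and 174 of all genes against 10. It changed no other count of calls among the 37 genes, where a call between the cell types includes the 2-fold threshold. The alpha and beta duplicate differences correlated over all genes at 0.65, 0.42, 0.34, 0.10, 0.19 and 0.04 from ZT0 to ZT20, positive at every time, a hint from the data only, and since not all exceed 0.1 the numbers were not taken to pair the samples. Depth limits Egr2, Egr3, Egr4 and Klf2, with 0 reads in some beta libraries.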
